A study of Bos taurus with 15 samples.

Results

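The S100 and annexin genes of bovine day 7 embryos were followed across embryos cultured without oviductal extracellular vesicles (oEVs) and embryos cultured with fresh or frozen oEVs. The members were 10 genes chosen by symbol, namely S100A10, S100A11, S100A14, S100A6, S100A4, ANXA1, ANXA2, ANXA4, ANXA5 and ANXA6. Their symbols were matched to the gene identifiers of the count tables, which succeeded for 9 of the 10. S100A6 was not matched and has no value here. Of the 9 genes, 8 were in the authors' filtered table of 10832 genes, and S100A4 was present only in the unfiltered table of 34773 genes.

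All embryos were blastocysts from in vitro fertilization, and each library was made from 1 ng of total RNA of a pool of 8 to 14 embryos. Control embryos (Co) received no vesicles, FeEV embryos received fresh oEVs and FoEV embryos received frozen oEVs, with 5 libraries per treatment. The labels give 7 days of culture, while the methods of the study give a longer culture. The oEVs came from oviduct fluid of slaughterhouse cows, and according to the study fresh and frozen oEVs were portions of the same preparations. The libraries were chosen from a larger set of pools for RNA quality and amount. Nothing says that the pools of a treatment came from separate cultures or donors, so p-values measure the spread between these pools.

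S100 proteins are small calcium-binding proteins with EF-hand motifs that act as dimers and change shape when calcium binds. Annexins bind acidic phospholipids of membranes when calcium is present and take part in membrane organization, vesicle traffic and repair. Both families meet in complexes, the best known of which joins S100A10, which has lost calcium binding, with ANXA2 beneath the plasma membrane. In the blastocyst the outer layer, the trophectoderm, is an epithelium, and several members of both families are known as epithelial genes.

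Library totals ranged from 2571558 to 2977004 counts in Co, from 2136713 to 3808602 in FeEV and from 3392613 to 4058887 in FoEV, so every FoEV library was deeper than every Co library. Ribosomal RNA took 15.5% to 28.2% of the counts of a library. Levels are given as CPM, the count of a gene relative to its library total, after scaling of the libraries by TMM, and a log2 fold change of 1 is a doubling of CPM. The table of reference genes gave no transcript lengths, so levels were not compared between genes. The samples are bulk pools, in which fewer cells of a type and less RNA per cell cannot be told apart. All 7 trophectoderm markers and all 3 inner cell mass markers listed were present in the filtered table. Of markers of other cells, 2 of 6 oviduct epithelium genes, 2 of 7 cumulus and granulosa genes, 3 of 4 fibroblast genes and 0 of 4 blood genes were in it. The oviduct glycoprotein gene OVGP1 had 32 counts over all 15 libraries and the haemoglobin gene HBB had 0. The other haemoglobin gene of the list, HBA, had 47 counts, with 6.25 and 6.40 CPM in Co replicates 1 and 2 and at most 0.741 CPM in the other 13 libraries. On the unfiltered table it was lower than in Co by a log2 fold change of -2.94 in FoEV (edgeR adjusted p = 0.0102) and -3.53 in FeEV (edgeR adjusted p = 0.0235).

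S100A14, an S100 gene of epithelial cells, was the member that stood out. Its CPM in the 5 Co libraries was 363, 287, 324, 278 and 399.7. In the 5 FeEV libraries it was 362, 319, 377, 322 and 433. In the 5 FoEV libraries it was 461, 405.9, 448, 452 and 466. Every FoEV library lay above every Co library, while the FeEV libraries overlapped both other treatments. The Co mean was 330.2 ± 51.5 CPM, the FeEV mean 363 ± 46.8 CPM and the FoEV mean 447 ± 23.9 CPM (SD, n = 5 each). S100A14 was thus 35.3% higher in FoEV than in Co embryos, with a log2 fold change of 0.44 and a 95% interval from 0.22 to 0.65. In edgeR's quasi-likelihood test the unadjusted p was 0.000346 and the adjusted p over all genes 0.0818, which did not pass the threshold of 0.05.

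The S100A14 call in FoEV against Co lay close to the threshold. Its adjusted p over 10 other settings of the analysis ran from 0.00421 to 0.165, and 4 of the 10 passed. They were the robust dispersion test that the study used (0.00421), the unfiltered table (0.00802), DESeq2 (0.0110) and a block for the replicate number (0.0146). With every library thinned to the depth of the shallowest, a setting chosen after seeing the data, the log2 fold change was 0.42 with an adjusted p of 0.103 by edgeR. The log2 fold change stayed between 0.38 and 0.51 when single libraries were left out. The adjusted p by edgeR was then 0.0530 to 0.272, and 0 of these 10 fits passed.

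Between the vesicle treatments S100A14 was higher in FoEV than in FeEV by 0.30 on the log2 scale (95% interval 0.09 to 0.51, edgeR unadjusted p = 0.00811, adjusted p = 0.496). FeEV libraries differed from Co by 0.14 with an interval from -0.08 to 0.35 (edgeR unadjusted p = 0.201), so these neighbours in the order of levels did not differ beyond their spread.

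Cell type markers also differed in level between FoEV and Co. All 7 trophectoderm markers had a log2 fold change above 0, 4 of them with an edgeR unadjusted p under 0.05 (8.18% of all genes were higher at that threshold) and none with an adjusted p under 0.05. The keratin gene KRT18 differed by 0.55, GATA2 by 0.34, KRT8 by 0.25 and GATA3 by 0.19 on the log2 scale. The summed level of the 7 markers was taken from the unfiltered table, with that table's own scaling. It ranged from 6299 to 8505 CPM in Co, from 6978 to 10527 in FeEV and from 8179 to 10985 in FoEV. KRT8 and KRT18, with Co means of 4266 and 2684 CPM in the filtered table, made up most of this sum. CDX2, TEAD4 and TFAP2C differed by 0.21, 0.09 and 0.20 without passing. Of the 3 inner cell mass markers 1 was lower at an unadjusted p under 0.05, where 6.88% of all genes were lower. It was the pluripotency gene NANOG, with a log2 fold change of -0.84 (edgeR unadjusted p = 0.00641, adjusted p = 0.178), while SOX2 was at -0.03 and POU5F1 at 0.21. In FeEV against Co NANOG was at -0.62 (edgeR unadjusted p = 0.0342, a threshold of 0.05 that 4.15% of all genes passed). There SOX2 was at -0.32 and POU5F1 at 0.13. All 7 trophectoderm markers were above 0 in FeEV against Co, with 0 at an unadjusted p under 0.05. Of the 4 filtered hypoblast genes 3 were lower and 1 was higher in FoEV than in Co, with log2 fold changes from -0.46 to 0.07. At an unadjusted p under 0.05 1 of them was lower, beside 6.88% of all genes. It was the fibronectin gene FN1, at -0.29 (edgeR unadjusted p = 0.0496, adjusted p = 0.331). On the unfiltered table the summed level of the inner cell mass markers ranged from 231 to 309 CPM in Co and from 219 to 333 CPM in FoEV. That of the 5 hypoblast markers, with SOX17 included, ranged from 6401 to 8767 CPM in Co and from 4645 to 7370 CPM in FoEV. FN1, with a Co mean of 6803 CPM in the filtered table, made up most of the hypoblast sum. The part of the cell types in the S100A14 difference was not tested.

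**Figure D1:**
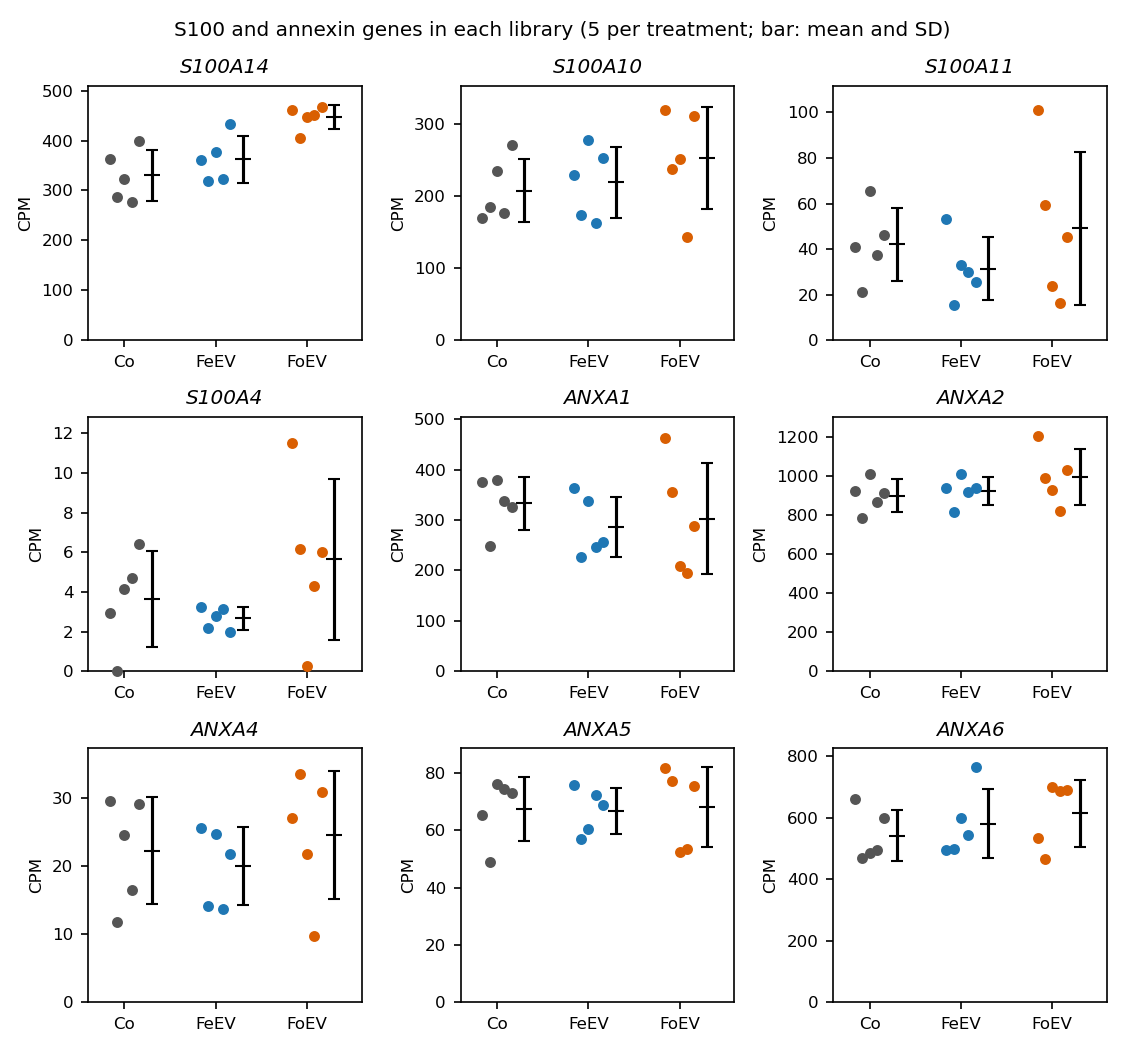
CPM of the 9 matched members in each library by treatment, with points for the 5 libraries of Co, FeEV and FoEV and a bar for the mean and SD. The S100A14 points of FoEV, from 405.9 to 466 CPM, all lie above those of Co, while the treatments overlap for each of the other genes. S100A4 is taken from the unfiltered table.

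Over the members as a group, differences between treatments were few. In FoEV against Co no member reached an adjusted p under 0.05 by edgeR, as against 0.00923% of all genes tested. At an unadjusted p under 0.05, 1 of 8 members passed, S100A14, as against 15.1% of all genes (8.18% higher and 6.88% lower). The libraries of the treatments did not overlap for 1 of 8 members, again S100A14, as against 2.6% of all genes (1.26% with FoEV above Co). These shares do not set the members apart from other genes. The log2 fold change was above 0 for 7 of 8 members, with a median of 0.17, while over all genes 52.3% were above 0 and the median was 0.01.

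In FeEV against Co no member passed an adjusted p under 0.05 (0.0% of all genes) and none passed an unadjusted p under 0.05 (4.15% of all genes) by edgeR. The DESeq2 and robust dispersion tests likewise gave 0 members at either threshold. Of 10832 genes, 411 and 664 passed the unadjusted threshold in these tests, and 1 and 6 the adjusted one. No member was free of overlap between the treatments, as against 0.951% of all genes. Of the 8 members 4 were higher and 4 lower, the median of their log2 fold changes was 0.01, and 51.0% of all genes were higher.

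In FoEV against FeEV no member passed an adjusted p under 0.05 by edgeR (0.0% of all genes). None did by DESeq2 (3 of 10832 genes) or by the robust dispersion test (31 of 10832 genes). S100A14 alone, 1 of 8, had an unadjusted p under 0.05, as against 8.52% of all genes (4.83% higher), and 0 of 8 were free of overlap, as against 1.5%. All 8 log2 fold changes were above 0, from 0.03 for ANXA5 to 0.65 for S100A11, with a median of 0.16, as against 51.8% of all genes above 0. The 3 comparisons share their libraries, so their counts are not independent of each other. Many members also varied together between libraries, so their signs within a comparison are not independent either.

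S100A10 and ANXA2, which form the heterotetramer at the membrane, overlapped between all treatments. S100A10 had 169.9, 185, 235, 177 and 270.0 CPM in Co. It had 228, 174, 277, 163 and 252 CPM in FeEV, and 319, 238, 251, 143 and 311 CPM in FoEV. The FoEV libraries held both its highest and its lowest level, the latter in replicate 4. Its log2 fold change in FoEV against Co was 0.29 with an interval from -0.16 to 0.73 (edgeR unadjusted p = 0.192, adjusted p = 0.538). Without FoEV replicate 4 it was 0.43 and the edgeR unadjusted p was 0.0195, with an adjusted p of 0.326. Without FoEV replicate 1, the highest library, it was 0.19 (edgeR unadjusted p = 0.398), and with a block for the library number in the sample descriptions 0.09.

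ANXA2, which links membranes to the actin cortex, was the least variable annexin among the members within Co and FeEV. Its levels were 925, 784, 1007, 866 and 914 CPM in Co, 938, 813, 1011, 919 and 940.0 CPM in FeEV, and 1206, 990.1, 927, 822 and 1028 CPM in FoEV. The treatments overlapped, with FoEV replicate 1 as the highest library. The log2 fold change in FoEV against Co was 0.15 with an interval from -0.05 to 0.35 (edgeR unadjusted p = 0.144). In FeEV against Co it was 0.04, with an interval from -0.16 to 0.24. Without FoEV replicate 4 the value for FoEV against Co was 0.21 with an edgeR unadjusted p of 0.0379 and an adjusted p of 0.391, and without FoEV replicate 1 it was 0.07 with an unadjusted p of 0.479.

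S100A11 and its partner ANXA1, a phospholipid-binding protein known from the control of inflammation and of receptor traffic, varied widely between libraries of the same treatment. S100A11 had 40.8, 21.3, 65.5, 37.3 and 46.4 CPM in Co. It had 53.0, 15.6, 33.2, 30.1 and 25.7 CPM in FeEV. In FoEV the values were 101, 59.3, 24.0, 16.4 and 45.5 CPM, so that the highest library of the series and one of the lowest were both FoEV pools. The highest library exceeded the lowest by 6.47 times, the widest range among the 8 members of the filtered table. In FoEV against Co the log2 fold change was 0.24 with an interval from -0.77 to 1.24 (edgeR unadjusted p = 0.618), and it was -0.21 without FoEV replicate 1. In FoEV against FeEV it was 0.65 with an interval from -0.37 to 1.67 (edgeR unadjusted p = 0.191), and 0.21 without FoEV replicate 1.

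ANXA1 had 375, 249, 379, 337 and 326 CPM in Co, 363, 227, 338, 247 and 256 CPM in FeEV, and 462, 356, 209, 196 and 289 CPM in FoEV. The FoEV libraries stood in the same order for ANXA1 as for S100A11, with replicate 1 highest and replicate 4 lowest. The mean was lower in both vesicle treatments than in Co, with log2 fold changes of -0.14 in FoEV (95% interval -0.61 to 0.33) and -0.22 in FeEV (-0.69 to 0.25). Neither passed the edgeR test, with unadjusted p of 0.541 and 0.340. Leaving out single libraries moved the FoEV value between -0.34 (without FoEV replicate 1) and -0.02 (without FoEV replicate 4).

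S100A4, linked to cell motility and to non-muscle myosin, had only 201 counts over the 15 libraries. Its counts were 8, 0, 13, 12 and 16 in Co, 11, 6, 9, 7 and 7 in FeEV, and 51, 25, 1, 13 and 22 in FoEV. The FoEV libraries held the highest count and a count of 1, and the treatments overlapped. On the unfiltered table the log2 fold change of FoEV against FeEV was 1.10 with an interval from 0.32 to 1.89 (edgeR unadjusted p = 0.00632, adjusted p = 0.385). With edgeR's own filter on low counts the same difference had an unadjusted p of 0.0940. FoEV differed from Co by 0.67 (edgeR unadjusted p = 0.0834) and FeEV from Co by -0.43 (unadjusted p = 0.324). These fits cover a gene that the authors' filter removed, and no adjusted p passed the threshold.

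The 3 remaining annexins also overlapped between treatments. ANXA4, an annexin of epithelial membranes, had 29.5, 11.8, 24.5, 16.5 and 29.1 CPM in Co, 25.6, 14.1, 24.7, 13.7 and 21.8 CPM in FeEV, and 27.1, 33.6, 21.8, 9.68 and 30.8 CPM in FoEV. Its log2 fold change was 0.16 in FoEV against Co, with an interval from -0.48 to 0.80 (edgeR unadjusted p = 0.609). ANXA5, which binds phosphatidylserine and is used to stain dying cells, had 65.3, 48.9, 76.1, 74.3 and 73.0 CPM in Co. Its levels were 75.7, 56.8, 60.4, 72.4 and 68.7 CPM in FeEV and 81.7, 77.2, 52.3, 53.4 and 75.2 CPM in FoEV. The 3 means of ANXA5 lay within 67.5 ± 11.2, 66.8 ± 7.99 and 68.0 ± 14.0 CPM (SD, n = 5 each), and the log2 fold change of FoEV against Co was 0.02 with an interval from -0.28 to 0.31.

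ANXA6, a large annexin with a duplicated core, had 662, 469.6, 484, 495 and 598 CPM in Co, 495, 498, 599.9, 542 and 764 CPM in FeEV, and 532, 465, 700.1, 686 and 689 CPM in FoEV. FoEV replicates 1 and 2, the highest FoEV libraries for S100A11 and ANXA1, were the lowest FoEV libraries for ANXA6. The log2 fold change was 0.18 in FoEV against Co (95% interval -0.11 to 0.47, edgeR unadjusted p = 0.202) and 0.10 in FeEV against Co (-0.19 to 0.39).

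The other S100 genes were read from a list that was not picked by how they moved, although earlier results of these data were known. Of the 14 symbols 13 were matched, S100P being the exception, and 5 were in the filtered table. In FoEV against Co all 5 log2 fold changes were above 0, with a median of 0.31, and 2 had an edgeR unadjusted p under 0.05. Together with the members, 8 of 8 S100 genes of the filtered table had a log2 fold change above 0, with a median of 0.30 and 3 genes at an unadjusted p under 0.05. Of all genes 52.3% were above 0 and 8.18% were higher at that threshold. Several of these S100 genes varied together across the same libraries, so their signs are not independent observations. The 9 annexins of the filtered table split into 5 higher and 4 lower, with a median of 0.02 and 0 genes at that threshold. No S100 or annexin gene passed an adjusted p under 0.05 by edgeR's quasi-likelihood test on the filtered table without a block. S100A14 and S100A5 passed under other settings, given with each gene.

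S100A5 had 31.0, 29.0, 37.4, 25.7 and 47.2 CPM in Co. It had 33.7, 31.9, 43.5, 33.2 and 40.5 CPM in FeEV, and 63.9, 56.8, 37.7, 61.4 and 57.0 CPM in FoEV. All FoEV libraries but replicate 3 lay above every Co and every FeEV library. S100A5 was 62.7% higher in FoEV than in Co, a log2 fold change of 0.70 with an interval from 0.37 to 1.03 (edgeR unadjusted p = 0.000212, adjusted p = 0.0757). Without FoEV replicate 3 the adjusted p was 0.0230 by edgeR, and 4 of 10 other settings passed the adjusted threshold. They were the robust dispersion test that the study used (0.000212), the unfiltered table (0.000597), DESeq2 (0.00844) and a block for the replicate number (0.0476). The highest adjusted p of the 10 was 0.161. FoEV differed from FeEV by 0.59 (edgeR unadjusted p = 0.00102, adjusted p = 0.447). There 2 of 10 other settings passed, the robust dispersion test (adjusted p = 0.0135) and the unfiltered table (edgeR adjusted p = 0.0280). FeEV differed from Co by 0.11 (edgeR unadjusted p = 0.510).

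S100A16, an S100 gene of many tissues, had 292, 209.5, 259.6, 206 and 325 CPM in Co, 263, 241, 335, 228 and 387 CPM in FeEV, and 372, 283, 322, 319 and 363 CPM in FoEV. Its FoEV libraries overlapped with both other treatments. The log2 fold change of FoEV against Co was 0.36 with an interval from 0.05 to 0.67 (edgeR unadjusted p = 0.0251, adjusted p = 0.257). The edgeR unadjusted p was above 0.05, at up to 0.0702, when Co replicate 2 or 4 or FoEV replicate 1 or 5 was left out. S100A3, a cysteine-rich gene known from hair follicles, differed between FoEV and FeEV by 0.74 (95% interval 0.05 to 1.43, edgeR unadjusted p = 0.0372, adjusted p = 0.563), with ranges of 9.35 to 35.7 CPM in FoEV and 6.68 to 15.3 CPM in FeEV. It was 0.43 to 0.91 when single libraries were left out, and the unadjusted p was above 0.05 without FeEV replicate 2 or 4 or FoEV replicate 1, 2 or 5. The level of S100A2, known from the basal cells of stratified epithelia, ran from 8.77 to 73.9 CPM in Co alone. Its log2 fold change in FoEV against Co was 0.31 with an edgeR unadjusted p of 0.524, and without Co replicate 5, the highest library, it was 1.00 with an unadjusted p of 0.0106. S100B, best known from glial cells, ranged from 3.28 to 14.8 CPM over all libraries.

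In the RefSeq gene order of a later bovine assembly, ARS-UCD2.0, S100A1, S100A13, S100A14, S100A16, S100A2, S100A3, S100A4 and S100A5 follow each other without another protein-coding gene between them on chromosome 3. S100A11 and S100A10 are neighbours further along the same chromosome. All 3 S100 genes with an unadjusted p under 0.05 in FoEV against Co lie in the first of these runs. Most S100 genes of the filtered table lie there, and those outside are S100A10, S100A11 and S100B. Whether place in this run goes with a difference was not tested. That run also holds S100A1 with 19 counts and S100A13 with 12 counts over all libraries, and S100A2 and S100A3, whose log2 fold changes of 0.31 and 0.16 in FoEV against Co did not pass the test. The strand setting of the counting is not given in the sources used here, so reads of overlapping neighbours could not be told apart.

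Several S100 genes of inflammatory and specialized cells were at or near 0. S100A8 and S100A9, the calprotectin genes of neutrophils, and S100G, the vitamin D-dependent calcium carrier of gut and uterus, had 0 counts in all 15 libraries. With a limit of 3 counts over all libraries, a count of 0 allows a level of up to 0.0629 CPM, for counting error only. S100A7 and S100A12 had 1 count each and S100Z had 20.

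The other annexins were close in level between treatments. ANXA10 and ANXA13 had 0 counts and ANXA9 had 6. In FoEV against Co the log2 fold change was -0.09 for ANXA3, -0.18 for ANXA7, 0.07 for ANXA8L1 and -0.01 for ANXA11, and none had an edgeR unadjusted p under 0.05 in any comparison. ANXA7, a membrane fusion annexin, had the lowest p of the 4 in FoEV against Co (edgeR unadjusted p = 0.141). The symbol ANXA8 is listed as another name of ANXA8L1, and reads of near-identical annexin copies are uncertain in such counts. ANXA11 had an even level in FoEV, from 70.6 to 73.7 CPM, beside 63.9 to 84.6 CPM in Co.

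**Figure D2:**
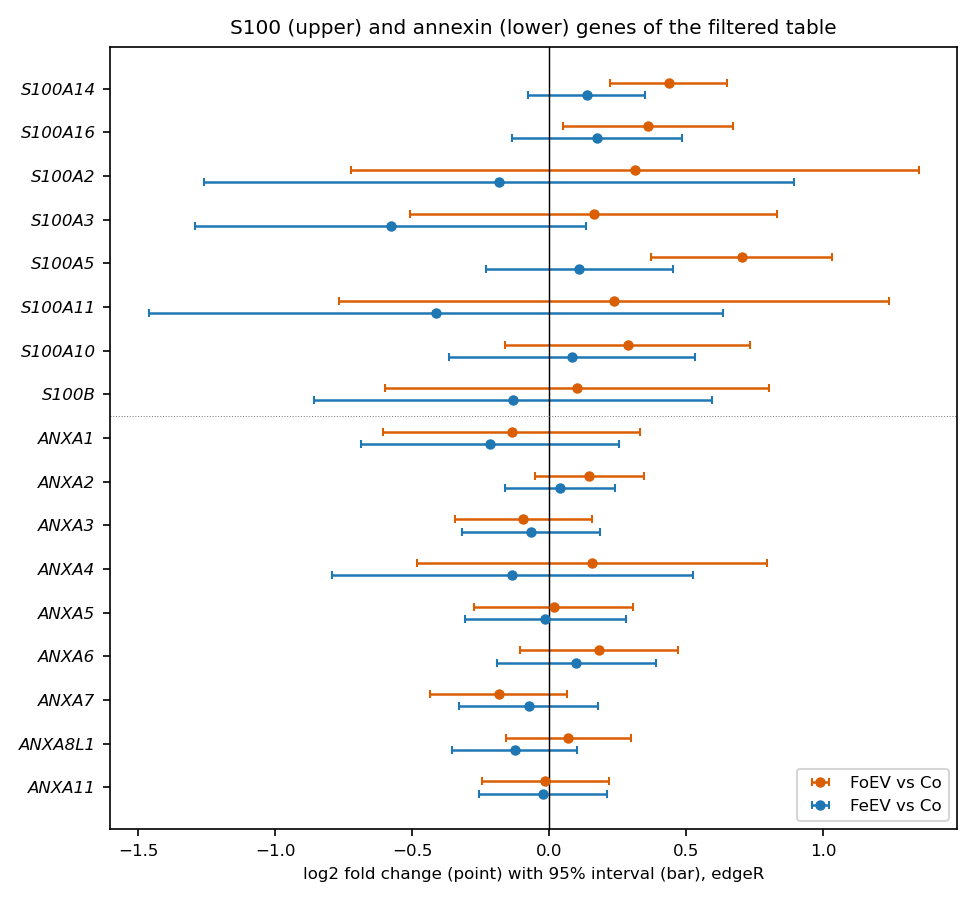
Log2 fold changes (points) with 95% intervals (bars) from edgeR for the 8 S100 and 9 annexin genes of the filtered table, in FoEV against Co and in FeEV against Co. The intervals of S100A14, S100A16 and S100A5 in FoEV against Co lie above 0, and every other interval includes 0.

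Genes whose products bind S100 proteins and annexins, or act with them, were read from lists made by their known function. Of 12 binding partners 9 were in the filtered table, and in FoEV against Co 0 were higher and 1 was lower at an edgeR unadjusted p under 0.05, as against 6.88% of all genes lower and 15.1% in either direction. That gene was DLC1, whose product binds S100A10. It had 203, 203, 225, 228 and 208 CPM in Co, 199, 224, 186, 231 and 211 CPM in FeEV, and 178, 153, 183, 196 and 179 CPM in FoEV. Every FoEV library lay below every Co library, and over all genes 2.6% were free of overlap in either direction. The log2 fold change of DLC1 was -0.27 with an interval from -0.45 to -0.09 (edgeR unadjusted p = 0.00527, adjusted p = 0.169). Against FeEV the difference was -0.24 (unadjusted p = 0.00983).

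Of the receptor and plasminogen genes 3 of 9 were in the filtered table and 0 passed an unadjusted p under 0.05 in any comparison by edgeR. Of the 4 calpain and penta-EF-hand genes, all in the filtered table, 1 did in FoEV against Co, where 15.1% of all genes did. It was GCA, the calcium-binding grancalcin, with 396, 296, 359, 306 and 479.7 CPM in Co. In FeEV it had 251, 289, 306, 232 and 352 CPM, and in FoEV 301, 233, 273, 178 and 395 CPM. Its libraries overlapped between treatments. The log2 fold change was -0.41 in FoEV against Co (95% interval -0.81 to -0.02, edgeR unadjusted p = 0.0420, adjusted p = 0.312) and -0.36 in FeEV against Co (unadjusted p = 0.0714). The difference between FoEV and Co was past an unadjusted p of 0.05 in 4 of 10 fits that each left out 1 library, those without Co replicate 2 or 4 or FoEV replicate 1 or 5. For DLC1 it was past it in 10 of 10.

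Because S100 proteins and annexins act in complexes, the mRNAs of 4 partner pairs were compared across the 15 libraries after removing the treatment means from log2 CPM. S100A10 and ANXA2 varied together, with Pearson's r = 0.749 (permutation p = 0.0069, adjusted p = 0.0138 over the 4 pairs) and Spearman's coefficient = 0.743 (permutation p = 0.00453, adjusted p = 0.00906). Leaving out FeEV replicate 4 and FoEV replicate 4, the libraries farthest from the median of S100A10, gave r = 0.687 (permutation p = 0.02). S100A10 also had r = 0.764 with ANXA4, outside the 4 pairs, and the median over the 28 pairs of members was 0.61. The test thus does not set partners apart from other members.

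S100A11 and ANXA1 had the closest relation of the 4 pairs. Pearson's r was 0.944 (permutation p = 2e-05, adjusted p = 8e-05) and Spearman's coefficient 0.911 (permutation p = 8e-05, adjusted p = 0.00032). Without FoEV replicates 1 and 4, the farthest libraries for S100A11, r was 0.902 (permutation p = 0.00027). Outside the 4 pairs, S100A11 had r = 0.906 with ANXA2 and 0.875 with ANXA5. Each treatment had too few libraries for a coefficient of its own.

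For S100A11 and ANXA6, r was -0.326 (permutation p = 0.295, adjusted p = 0.295) and Spearman's coefficient -0.336 (permutation p = 0.27, adjusted p = 0.27), and without the farthest libraries r was -0.174 (permutation p = 0.606). For S100A4 and ANXA2, r was 0.523 (permutation p = 0.106, adjusted p = 0.141) and Spearman's coefficient 0.518 (permutation p = 0.0637, adjusted p = 0.0849), and without the farthest libraries r was 0.531 (permutation p = 0.158). Neither relation passed the threshold without a block for the replicate number, and with it r was -0.859 and 0.676. The permutations did not keep this block, so no p-value is given with it. With 12 counts or fewer in many libraries, S100A4 is a weak measure for such a relation.

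**Figure D3:**
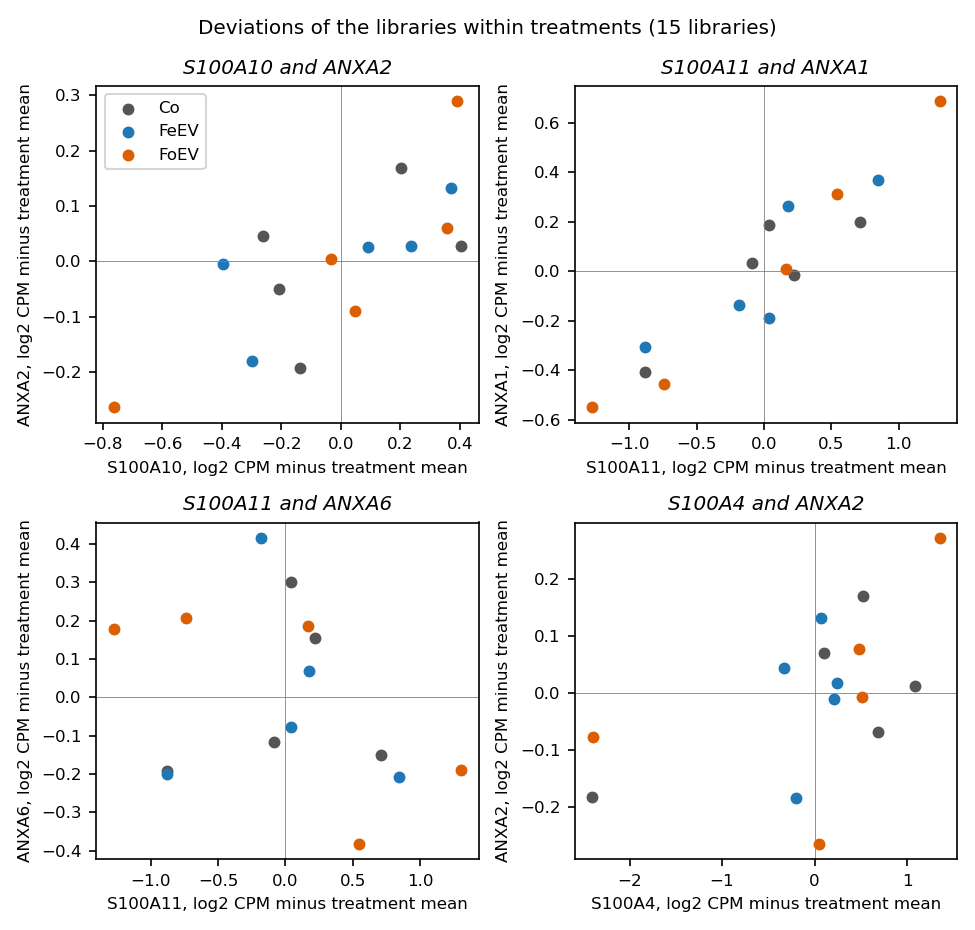
Deviations from the treatment mean in log2 CPM for the 4 partner pairs, with 1 point per library and colours for Co, FeEV and FoEV. The points of S100A11 and ANXA1 follow a line (r = 0.944) that runs from FoEV replicate 4 at the lower left to FoEV replicate 1 at the upper right, and those of S100A11 and ANXA6 do not (r = -0.326).

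The same deviations were compared among all members, as a description over 15 libraries that share pools and depth. Over the 28 pairs of the 8 members of the filtered table the median r was 0.61, with 24 pairs above 0 and a range from -0.34 to 0.94. The lowest value was that of ANXA1 with ANXA6. Among S100A11, ANXA1, ANXA2, ANXA4 and ANXA5 the 10 pairs had r from 0.64 to 0.94. S100A3, which is not a member, had r from 0.80 to 0.91 with these genes, and S100A10 had r from 0.46 to 0.76. ANXA6 stood apart from S100A11, ANXA1, ANXA2, ANXA4 and ANXA5, with r from -0.34 to 0.07. Among S100A14, S100A16, ANXA6 and ANXA8L1 the 6 pairs had r from 0.69 to 0.96. Both groupings were chosen after the values were seen and were not tested.

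Of all genes in the filtered table, the one most like S100A14 across the libraries was its chromosomal neighbour S100A16, with r = 0.956, followed by DDT with r = 0.928 and CTSH with r = 0.923. The neighbours S100A10 and S100A11 had r = 0.643. For S100A10 the most alike genes were TINAGL1 with r = 0.933 and AKTIP with r = 0.923. For ANXA2 they were IFNT3, a gene of the interferon tau family, with r = 0.923 and FERMT1 with r = 0.911, and S100A11 was the fourth with r = 0.906. These genes were selected as the highest of 10832, so their r values carry no test.

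**Figure D4:**
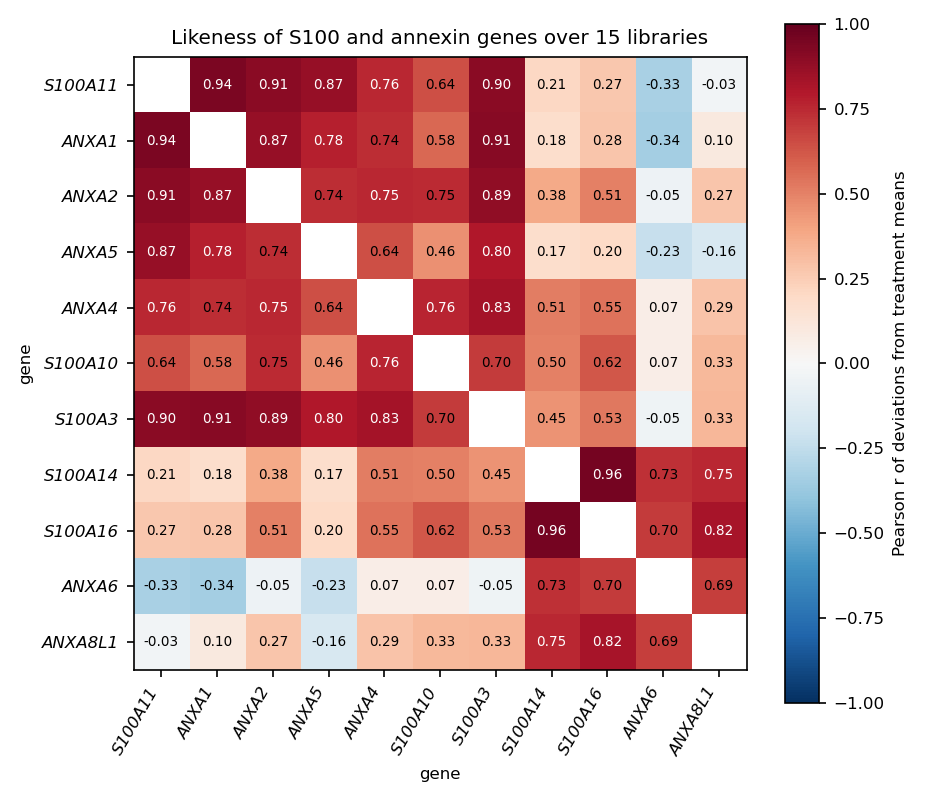
Pearson's r between S100 and annexin genes over 15 libraries, computed from deviations from the treatment means in log2 CPM, with a colour scale from -1 to 1. S100A11, ANXA1, ANXA2, ANXA5 and ANXA4 form a block of values from 0.64 to 0.94, and S100A14, S100A16, ANXA6 and ANXA8L1 a block from 0.69 to 0.96. S100A3 had r from 0.80 to 0.91 with the genes of the first block.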

How the data were processed

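Total RNA of 15 embryo pools was sequenced with a low-input kit that selects strands. According to the submitters' processing notes, reads were handled with Trim Galore 0.4.3.1, HISAT2 2.1.0 and featureCounts 1.6.3 on the assembly ARS-UCD1.2, while the methods of the study name QuasR Qcount for counting. The authors deposited raw counts per gene, without normalization, as a table of 34773 genes and a filtered table of 10832 genes. The tables carry gene identifiers, which were matched to RefSeq symbols. S100A6, S100P, FPR1 and FPR2 were not matched.

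The filtered counts were scaled by TMM and fitted in edgeR 4.0.16 (R 4.3.3) for its robust two-sided quasi-likelihood test, with treatment as the only factor and all 15 libraries in 1 fit. P-values were adjusted by Benjamini-Hochberg over all genes. S100A4 was tested in the same way on the unfiltered table. DESeq2 1.42.0, the robust dispersion likelihood ratio test, other scalings and filters and leaving out single libraries were alternatives. Correlations used log2 CPM with a prior count of 2 and 100000 two-sided permutations within treatments, in Python 3.11.15 with numpy 2.4.6. No replicate pair agreed within sampling noise. Depth of 2136713 to 4058887 counts limits genes with few counts.

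The members and gene lists were chosen with earlier results of these data known. Named are all members, the other S100 and annexin genes with counts, and partner, receptor and calpain genes with an unadjusted p under 0.05 in any comparison.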

Additional observations from a re-analysis of the deposited data

Results flagged for a closer look

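In 2 of 54 groups of 5 libraries, taken over the S100 and annexin genes with a fit or a member's counts, the lowest library stood apart from the others. Chance gives this in about 1 in 20 groups. S100A5 had 37.7 CPM in FoEV replicate 3, with 56.8 CPM in the next library, and the gap took 0.727 of the range of the group. ANXA11 had 70.6 CPM in FoEV replicate 5 with 73.1 CPM in the next library, a gap of 0.822 of a narrow range.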

How the results depend on the processing

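In FoEV against Co the number of members with an unadjusted p under 0.05 was 1, where 1631 of 10832 genes passed. It was 2 with the robust dispersion test and with the replicate block (S100A10 beside S100A14), where 1962 and 1911 of all genes passed. When single libraries were left out the number of members ranged from 1 to 3. The 3 (S100A10, ANXA2 and S100A14) came without FoEV replicate 4, where 1284 of all genes passed. The number of members with an adjusted p under 0.05 was 0. It was 1 (S100A14) without the filter, with DESeq2, with the robust dispersion test and with the replicate block. In FeEV against Co the number of members at the unadjusted threshold was 0 to 1 when single libraries were left out. The 1 was S100A14 without Co replicate 5, where 428 of 10832 genes passed. In FoEV against FeEV the number of members whose libraries did not overlap was 0 to 1, with 1 without FeEV replicate 5 or without FoEV replicate 2. Treatments overlap less readily with a library fewer, and the share of all genes was not computed for these sets. The correlation of S100A11 with ANXA6 was -0.859 with the replicate block, which the permutations did not keep, so it has no p-value. That of S100A4 with ANXA2 was 0.676 with the block, also without a p-value, and 0.386 to 0.638 when single libraries were left out. The cause of these shifts was not tested.

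Over 60 fold changes of 20 genes, 1143 values were computed under alternatives. Of these, 1069 kept their direction and their side of the adjusted threshold and 12 newly passed it. In 62 the sign changed with neither value at an unadjusted p under 0.05, and the largest of these was 0.51 in size. GCA in FoEV against Co had an adjusted p of 0.0440 with the replicate block. Over all genes, the number with an adjusted p under 0.05 in FoEV against Co was 1 with edgeR, 311 with the robust dispersion test, 144 with DESeq2, 173 without the filter, 57 with the replicate block, 12 with a block for the library number in the sample descriptions, 5 with only the treatments compared and 2 with thinned counts. In FeEV against Co it was 0 with edgeR, 6 with the robust dispersion test, 1 with DESeq2 and 13 without the filter, and in FoEV against FeEV 0, 31, 3 and 22.

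The titles number the libraries of each treatment, but the numbers are not shown to pair pools. Deviations of libraries with the same number correlated by 0.03 on average in FoEV and Co (lowest -0.29), by 0.14 in FeEV and Co (lowest -0.21) and by 0.19 in FoEV and FeEV (lowest 0.01). Libraries with other numbers correlated by -0.01, -0.03 and -0.05 on average in these comparisons, each below the average for the same number. In the same order, 1, 2 and 2 of 5 libraries correlated best with their own number. By the library number in the sample descriptions, the averages were 0.08, 0.10 and 0.07 for the same number and -0.01 in each comparison for other numbers. Genes with few counts, such as S100A4, are limited by depth.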
